A study of Rattus norvegicus with 30 samples.

Results

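The amino acid transporter families of the solute carrier series were followed here across 2 kidney tissues and 3 diet groups of the rat. The members were the protein-coding genes of the table whose symbols place them in the Slc1a, Slc3a, Slc6a, Slc7a, Slc36a, Slc38a or Slc43a families, without Slc6a6 and Slc6a12. Of 22293 protein-coding genes among 32545 genes in the table, 60 matched, and 43 of these reached at least 10 counts in at least 5 of 30 libraries. The other 17 are accounted for below.

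The study sequenced poly(A) RNA from the right kidney cortex (Cx) and outer medulla (OM) of Sprague-Dawley rats. The animals ate a diet with 0.4% NaCl (LS) or were switched from it to 4.0% NaCl for 14 days (HS14) or 21 days (HS21), and each tissue and diet group held 5 libraries. The rats were male by the study's methods, the labels give no age, and each piece of tissue holds many cell types. Total counts per library ranged from 13953714 to 21842843 in Cx and from 5408126 to 16557589 in OM, the lowest being OM HS14 replicate 10.

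Filtered amino acids are taken up across the brush border of the proximal tubule and leave the cell through its basolateral membrane. Neutral amino acids enter mainly through sodium-coupled Slc6a carriers, cystine and cationic amino acids through a heterodimer of the heavy chain Slc3a1 with the light chain Slc7a9, and acidic amino acids through Slc1a1. On the basolateral side the heavy chain Slc3a2 pairs with light chains such as Slc7a7 and Slc7a8, while other members feed glutamine to ammonia production or supply growing and immune cells.

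Levels below are counts scaled to library size (CPM) after TMM scaling over the 30 libraries, divided by gene length in kilobases, so that they can be compared between genes. A member passed the test when edgeR's quasi-likelihood test, run on the libraries of that comparison and on all genes, gave a Benjamini-Hochberg adjusted *P* under 0.05, and higher or lower below refers to the group named first. The members to be named were 13 reabsorption carriers and, in each comparison, up to 6 calls in each direction with the largest log2 ratios. All others were chosen after their values were seen. Between the tissues on LS these were Slc7a5, Slc38a2, Slc1a3, Slc1a5, Slc7a1, Slc7a2, Slc7a4, Slc6a8, Slc6a9, Slc6a17, Slc36a1, Slc38a4, Slc43a1 and Slc7a15, and in Cx at HS21 Slc7a6, Slc7a1, Slc7a10, Slc36a1, Slc6a4, Slc38a7, Slc36a4 and all that did not pass apart from the 13. In the other comparisons they were the members that passed only in another setting or without 1 library, those that lost a call outside the 6 largest, and those named for an unadjusted *P*. Gene positions are on Rnor_6.0. Replicates are numbered 1 to 5 in LS, 6 to 10 in HS14 and 11 to 15 in HS21, in both tissues.

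Before the results, 4 libraries need naming. OM LS replicate 2 held a summed level of the 16 proximal tubule markers of 6766, where the other OM LS libraries held 2011, 3243, 3080 and 1017. The 5 markers of distal convoluted and connecting tubule, cell types of the cortex, summed to 119 in that library and to between 5.70 and 9.54 in the others of its group. OM LS replicate 5 lay at the other end, with the lowest proximal tubule sum of all OM libraries, and Cx HS14 replicate 10 had 6048, against 7067 to 7786 in the other Cx HS14 libraries. OM HS14 replicate 10 had the fewest counts. By the paper's supplement it also had the lowest shares of exonic bases and spliced reads of the 30 libraries, and the highest share of intronic bases.

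In Cx on LS, the summed level of the 43 members was 2382, 2316, 2254, 2517 and 2445 in the 5 libraries. Slc3a1 took 23.8% of the mean sum, Slc7a7 14.1%, Slc3a2 11.2%, Slc6a8 11.1%, Slc7a9 8.19% and Slc6a19 5.75%, so these 6 genes together held 74.1%. In OM on LS the sum was 3426, 7779, 4784, 5163 and 1514, and its order was different. There Slc7a13 took 40.5% and Slc3a1 34.4%, together 74.8%, followed by Slc6a18 with 5.72%, Slc7a12 with 3.24% and Slc38a3 with 2.79%. This order is that of the means and did not hold in replicate 5, where Slc38a2 (113), Slc3a2 (103) and Slc6a8 (80.0) were above Slc6a18 (51.2), Slc7a12 (27.4) and Slc38a3 (24.8). The 5 Cx sums lay close together, whereas the OM sums spread widely, highest in replicate 2 and lowest in replicate 5.

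OM and Cx were compared on the LS diet to see which carriers belong to which tissue. Of 38 members tested, 16 were higher in OM and 11 lower, where 21.3% of 14295 genes tested were higher and 19.5% lower. The median log2 ratio of the members was 0.09 and that of all genes 0.03. Scaling by total counts moved the median of all genes to 0.27, the share of passing genes that were higher went from 52.2% to 75.1%, and the members numbered 18 higher and 9 lower. Of the 27 members that passed, 25 still passed with that scaling and 0 changed sign.

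The apical carriers did not share a direction between the tissues. Slc7a13, the light chain of an aspartate, glutamate and cystine transporter on chromosome 5 (33784715 to 33805616), had levels of 22.7, 6.93, 19.5, 47.7 and 57.9 in Cx LS. In OM LS its levels were 1380, 3051, 2060, 2222 and 458. Every OM library was above every Cx library, and the log2 ratio was 5.89 (SE 0.72 and adjusted *P* = 0.000134, 5 against 5 libraries). Its partner Slc3a1 on chromosome 6 (8284878 to 8318674) had levels of 572, 552, 503, 626 and 584 in Cx LS and of 1102, 3001, 1600, 1715 and 376 in OM LS. Replicates 1 to 4 of OM lay above all of Cx, and replicate 5 lay below all of Cx. The log2 ratio was 1.46 (SE 0.42 and adjusted *P* = 0.0188). This call of Slc3a1 was lost in a fit with a block for replicate number, given in the last section. Slc7a9, the other light chain that pairs with Slc3a1, on chromosome 1 (91716383 to 91738494), went the opposite way. Its levels were 200, 203, 179, 201 and 193 in Cx LS and 18.2, 82.0, 34.7, 37.9 and 6.25 in OM LS. All OM libraries were lower, with a log2 ratio of -2.45 (SE 0.53 and adjusted *P* = 0.00428).

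The 2 light chains of Slc3a1 can be set against each other within each library as a ratio of levels. The level of Slc7a13 relative to that of Slc7a9 was 0.113, 0.0342, 0.109, 0.237 and 0.300 in Cx LS. In OM LS the ratio was 75.9, 37.2, 59.3, 58.5 and 73.2, and it stayed between 50.0 and 70.3 in both OM HS groups. Relative to the heavy chain Slc3a1, the level of Slc7a13 was 1.25, 1.02, 1.29, 1.30 and 1.22 in OM LS, so the light chain and the heavy chain were at like levels in libraries whose own levels differed several-fold. In Cx LS it was Slc7a9 whose ratio to Slc3a1 was even, at 0.351, 0.367, 0.356, 0.321 and 0.330.

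Slc6a19 and Slc6a18 are neighbours on chromosome 1, in the same orientation and 1590 bases apart (32199810 to 32220045 and 32221636 to 32236051). Slc6a19 is the main apical carrier of neutral amino acids, and its levels in Cx LS were 140, 144, 128, 136 and 137. In OM LS they were 0.458, 9.56, 1.99, 1.30 and 0.122. The OM libraries were far below every Cx library, the highest of them being replicate 2, and the log2 ratio was -5.69 (SE 0.97 and adjusted *P* = 0.00103). Slc6a18, a carrier of glycine and other neutral amino acids, had levels of 75.2, 81.0, 75.8, 95.8 and 78.7 in Cx LS and of 164, 535, 275, 272 and 51.2 in OM LS. Again 4 of 5 OM libraries were above all of Cx and replicate 5 was below, with a log2 ratio of 1.67 (SE 0.47 and adjusted *P* = 0.0165). This call of Slc6a18 was also lost in the fit with a block for replicate number. The ratio of the level of Slc6a18 to that of Slc6a19 ran from 0.537 to 0.703 in Cx LS and from 55.9 to 421 in OM LS.

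The remaining apical carriers overlapped between the tissues. Slc1a1, the glutamate and aspartate carrier, had levels of 101, 95.3, 88.6, 101 and 101 in Cx LS and of 59.0, 125, 74.4, 69.4 and 44.0 in OM LS. OM replicate 2 was above all of Cx and the other 4 were below, and the log2 ratio of -0.39 (SE 0.23) did not pass (adjusted *P* = 0.209). Without OM LS replicate 2 it was -0.67 with adjusted *P* = 0.00282. For the proline carrier Slc6a20 the log2 ratio was -0.56 (SE 0.43 and adjusted *P* = 0.332), and without OM LS replicate 2 it was -1.10 with adjusted *P* = 0.0136. Slc36a1, a proton-coupled carrier of small neutral amino acids, did the same, with a log2 ratio of -0.52 (adjusted *P* = 0.119) that became -0.78 (adjusted *P* = 0.00653) without that library. It also passed in 1 fit over 30 libraries, at -0.52 with adjusted *P* = 0.0476, and with a block for replicate number, at -0.58 with adjusted *P* = 0.0234. The gene was named after its values were seen.

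Several basolateral carriers of Cx were low in OM. Slc7a7, the light chain that exports cationic amino acids, on chromosome 15 (33013504 to 33051129), had levels of 345, 327, 327, 330 and 355 in Cx LS and of 7.95, 23.2, 11.4, 8.71 and 12.4 in OM LS. No library of one tissue reached the range of the other, and the log2 ratio was -4.73 (SE 0.30 and adjusted *P* = 2.74e-06). Slc7a8, a light chain for neutral amino acids 318086 bases away in the same orientation (33369216 to 33428973), had levels of 106, 102, 100, 108 and 99.6 in Cx LS and of 2.66, 10.9, 3.64, 1.89 and 2.13 in OM LS, with a log2 ratio of -4.61 (SE 0.50 and adjusted *P* = 6.77e-05). Their heavy chain Slc3a2 on chromosome 1 (224906554 to 224921092) had levels of 267, 252, 271, 267 and 278 in Cx LS and of 75.8, 64.3, 74.4, 72.7 and 103 in OM LS. It was also lower in every OM library, but by less, with a log2 ratio of -1.78 (SE 0.12 and adjusted *P* = 3.86e-06). The facilitated carrier Slc43a2 followed with -1.56 (SE 0.17 and adjusted *P* = 7.84e-05), and the light chain Slc7a10 with -3.48 (SE 0.56 and adjusted *P* = 0.000742) at levels under 2.2. DESeq2 gave no adjusted *P* for Slc6a19 and Slc7a8 in this comparison, so its count of 9 lower members is without them.

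A smaller set of light chains was higher in OM. Slc7a12, which lies on chromosome 2 (88559702 to 88660449), had levels of 3.78, 3.02, 2.79, 4.27 and 4.95 in Cx LS and of 127, 226, 156, 199 and 27.4 in OM LS. All OM libraries were higher, with a log2 ratio of 5.28 (SE 0.53 and adjusted *P* = 4.01e-05). Slc7a6, a light chain that exchanges cationic for neutral amino acids, had a log2 ratio of 1.78 (SE 0.36 and adjusted *P* = 0.00276) with overlap, since OM LS replicate 2 at a level of 1.68 lay inside the Cx range of 1.23 to 2.03. Slc7a5, the light chain of the large neutral amino acid carrier of growing cells, had a log2 ratio of 1.65 (SE 0.20 and adjusted *P* = 0.000142) without overlap.

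Among the glutamine carriers 3 of 7 tested were higher in OM and 3 lower. Slc38a3, the basolateral glutamine carrier that feeds ammonia production, on chromosome 8 (116406241 to 116422366), had levels of 18.5, 15.1, 26.8, 37.0 and 32.4 in Cx LS and of 89.9, 245, 119, 154 and 24.8 in OM LS. Replicate 5 of OM fell inside the Cx range, and the log2 ratio was 2.28 (SE 0.51 and adjusted *P* = 0.00501). Slc38a1 had levels of 1.84, 1.03, 1.05, 1.58 and 2.39 in Cx LS and of 18.3, 3.26, 15.6, 14.1 and 21.7 in OM LS. It was higher in every OM library but lowest in replicate 2, the reverse of Slc38a3, and its log2 ratio was 3.19 (SE 0.46 and adjusted *P* = 0.000358). Slc38a2, which lies 48664 bases from Slc38a1 on chromosome 7, had a log2 ratio of 1.74 (SE 0.14 and adjusted *P* = 9.69e-06). Slc38a7, a carrier of the lysosomal membrane, was lower in every OM library, with a log2 ratio of -2.22 (SE 0.17 and adjusted *P* = 6.69e-06).

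All 3 tested members of the group of acidic and small neutral carriers, Slc1a3, Slc1a4 and Slc1a5, were higher in OM, as were 2 of 3 cationic carriers, Slc7a1 and Slc7a4. The largest ratio among these was that of Slc1a4, an exchanger of alanine, serine and cysteine. Its levels were 0.889, 0.385, 0.557, 0.759 and 0.647 in Cx LS and 5.48, 13.9, 7.86, 7.30 and 1.89 in OM LS. The groups did not overlap, with replicate 2 again highest and replicate 5 lowest, and the log2 ratio was 3.48 (SE 0.48 and adjusted *P* = 0.000283). Of the other Slc6a members, the creatine carrier Slc6a8 had levels of 254, 254, 272, 282 and 257 in Cx LS and of 77.8, 85.2, 78.1, 78.3 and 80.0 in OM LS. Its log2 ratio was -1.73 (SE 0.08 and adjusted *P* = 4.91e-07). The brain-type carrier Slc6a17 and the glycine carrier Slc6a9 were higher in OM, with log2 ratios of 1.43 and 1.34.

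For Slc43a1, Slc7a2 and Slc1a3, described after their values were seen, the call in this contrast depended on single libraries. Slc43a1 had a log2 ratio of -0.41 (adjusted *P* = 0.208) that became -0.68 (adjusted *P* = 0.0113) without OM LS replicate 5. For Slc7a2 it was -0.47 (adjusted *P* = 0.117), and -0.61 (adjusted *P* = 0.0489) without Cx LS replicate 2. The call of Slc1a3, at 1.18 (adjusted *P* = 0.0356), was lost without Cx LS replicate 1, 2 or 3 or OM LS replicate 1 or 5, with adjusted *P* between 0.0591 and 0.0811.

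**Figure D1:**
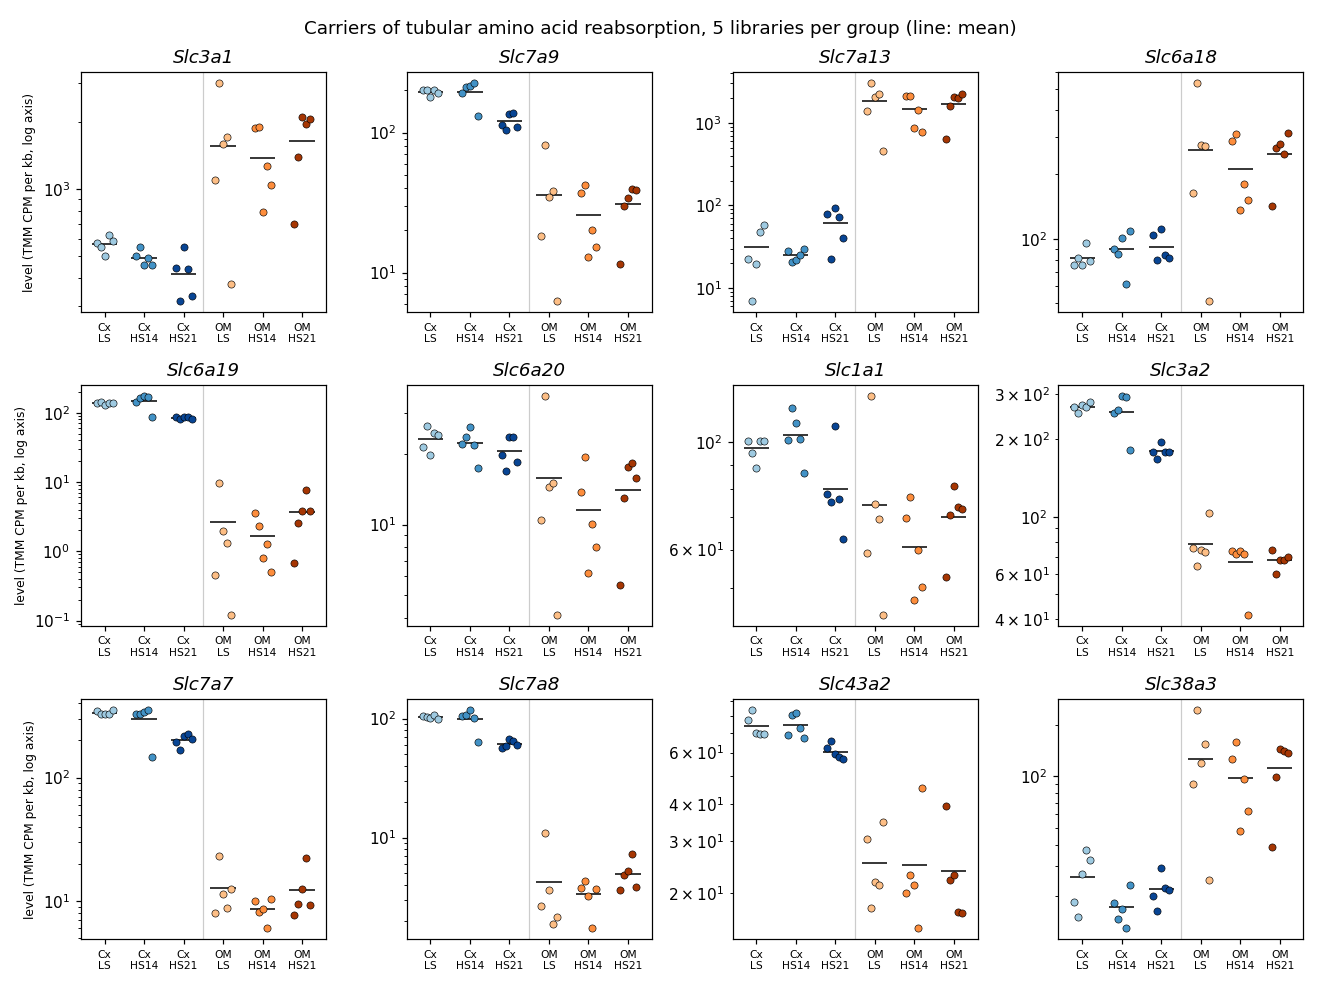
Levels of 12 carriers of tubular amino acid reabsorption in every library, as TMM-scaled CPM per kilobase on a log axis, in Cx (blue) and OM (orange) for LS, HS14 and HS21, with 5 libraries per group and a line at each mean. Slc7a13 sits between 6.93 and 92.2 in Cx and between 458 and 3051 in OM, whereas Slc7a7 sits between 146 and 355 in Cx and between 6.01 and 23.2 in OM.

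The tissue pieces differed in their markers as well. Of 16 proximal tubule markers tested, 2 were higher and 11 lower in OM on LS, their summed level being 7760, 8019, 7798, 8519 and 8260 in Cx LS, where Slc34a1 was the most abundant. In OM LS, Aqp1, which thin limbs also express, was the most abundant of them. Of the 4 markers given to the last segment of the proximal tubule (S3), 3 were higher and 1 lower, with sums of 46.7, 30.8, 64.3, 44.6 and 48.7 in Cx LS and of 39.8, 93.9, 74.8, 47.9 and 7.89 in OM LS. The 2 tissues differed in the gene that led these sums. In Cx LS it was Slc5a8, with a mean level of 45.0 in a mean sum of 47.0. In OM LS it was Slc22a13, with 26.1 in a mean sum of 52.9, and OM replicate 5 had the lowest sum. Of 8 thick ascending limb markers 7 were higher and the other 1 did not pass, with sums of 7168, 4276, 6562, 6918 and 8775 in OM LS. Umod was the most abundant of them in both tissues. All 4 tested markers of distal convoluted and connecting tubule were lower. Of 9 collecting duct markers 4 were higher and 2 lower, with sums of 561, 284, 531, 551 and 1147 in OM LS and Aqp2 the most abundant there. All of 4 podocyte markers (Nphs1, Podxl, Synpo and Wt1, read as a group after the data were seen) were lower, with sums of 91.5, 106, 104, 106 and 102 in Cx LS and of 25.9, 44.5, 27.5, 22.5 and 31.8 in OM LS, Podxl being the most abundant. Of 7 endothelial markers 2 were lower and of 7 leukocyte markers 1 was higher, while none of 6 fibroblast, 9 macrophage and 4 tested T cell markers passed. Slc7a13, Slc3a1, Slc6a18, Slc7a12, Slc38a3 and Slc1a4 all had their highest OM LS level in replicate 2 and their lowest in replicate 5, the same libraries as the proximal tubule sum. The part of cell type composition in the tissue differences was not tested, and fewer cells of a type and less RNA per cell cannot be told apart in bulk tissue.

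The same contrast was made between the HS14 groups, which share no library with the LS groups. It was chosen after seeing the data. There 16 members were higher in OM and 12 lower, where 15.7% of 14451 genes were higher and 13% lower. Of the 16 higher on LS, 14 were higher again, and of the 11 lower on LS, 9 were lower again. Slc7a13 had a log2 ratio of 5.87 (SE 0.36), Slc6a19 of -6.41 (SE 0.52), Slc7a7 of -5.11 (SE 0.29) and Slc7a8 of -4.89 (SE 0.28). At HS14 the ratio was 1.49 (adjusted *P* = 0.000851) for Slc3a1 and 1.25 (adjusted *P* = 0.00338) for Slc6a18, in a fit without a block for replicate number. Slc1a1 (-0.77, adjusted *P* = 0.00365) and Slc6a20 (-0.95, adjusted *P* = 0.0233) also passed.

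Within Cx, HS14 was compared with LS, then HS21 with LS and with HS14. The comparisons of HS14 and of HS21 with LS share the 5 Cx LS libraries, which also serve in the tissue contrast, so their values are given side by side and no overlap is drawn from them. At HS14, 1 of 38 members was higher (1.14% of 14181 genes tested) and 1 lower (1.18%). Slc43a3, a carrier of purine bases despite its family, had levels of 4.21, 2.12, 4.61, 4.53 and 3.86 in Cx LS and of 10.5, 4.64, 9.24, 8 and 6.66 in Cx HS14. All HS14 libraries were higher, 1 of them by little, and the log2 ratio was 1.01 (SE 0.23 and adjusted *P* = 0.0463). The call was lost without any 1 of Cx LS replicates 1 to 5 or Cx HS14 replicates 6, 8 and 9, with adjusted *P* between 0.0740 and 0.104. Slc6a13, a carrier of GABA and taurine, was lower with a log2 ratio of -0.37 (SE 0.07 and adjusted *P* = 0.0281). That call was lost without Cx LS replicate 1, 3, 4 or 5 or Cx HS14 replicate 6, 8 or 9, with adjusted *P* between 0.0507 and 0.0852. Without Cx HS14 replicate 10, 2 members were higher, the added one being Slc6a17 with a log2 ratio of 0.36 (adjusted *P* = 0.0391). Of all 14256 genes tested in that fit, 274 were higher. DESeq2 found 5 members higher and 1 lower.

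Cell type markers moved at HS14 as well. Of 7 leukocyte markers 5 were higher, with sums of 117, 123, 111, 120 and 91.5 in Cx HS14, Cd48 being the most abundant. Of 6 T cell markers tested 3 were higher, with sums of 32.9, 35.5, 29.6, 35.4 and 26.6, and Cd4 was the most abundant. Of 9 macrophage markers 1 was higher and 8 had an unadjusted *P* under 0.05, with sums of 169, 135, 152, 171 and 106, and C1qc was the most abundant. The LS sums of these lists are given with HS21 below. Of 16 proximal tubule markers 2 were lower, with sums of 7404, 7786, 7289, 7067 and 6048 and Slc34a1 the most abundant, and 1 of 2 tested S3 markers was lower, with sums of 30.4, 34.9, 32.9, 27.9 and 30.4 and Slc5a8 the most abundant. Of the markers of distal convoluted and connecting tubule 1 of 4 tested was higher, with sums of 694, 655, 915, 679 and 1162, and of 9 collecting duct markers 1, with sums of 387, 330, 449, 370 and 625. None of the thick ascending limb, podocyte, endothelial and fibroblast markers passed. The part of these shifts in the results of the members was not tested.

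At HS21, 8 of 38 members were higher than in Cx LS and 13 lower, where 18.9% of 14299 genes tested were higher and 20.5% lower. The share of members that were higher was near that of all genes, and the share that were lower was 34.2%. By role, 0 of 8 members given the apical role were higher and 4 lower, and 4 of 10 given the basolateral role were higher and 4 lower. The role is a label placed on each gene, and the cells or membrane that hold it were not measured. The apical count of 0 higher was by edgeR, with an unadjusted *P* under 0.05 in 0 and 0 by DESeq2, but Slc6a18 was higher with total counts and by limma. DESeq2 kept all 21 calls and added Slc1a3, Slc6a16 and Slc7a12, whereas limma on FPKM kept 16 of the 21, with 8 lower members, and 1 fit over 30 libraries kept 10, with 3 lower members. The median log2 ratio of the members was -0.08 and that of all genes 0.00461. Scaling by total counts moved the median of all genes to 0.13, the share of passing genes that were higher went from 47.9% to 72.7%, and the members numbered 15 higher and 9 lower. Of the 21 members that passed, 17 still passed with that scaling and 0 changed sign.

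Among the apical carriers Slc6a19, Slc7a9, Slc3a1 and Slc36a1 were lower. Slc6a19 had levels of 142, 161, 173, 167 and 86.8 in Cx HS14 and of 85.7, 80.6, 87.6, 87.2 and 80.6 in Cx HS21. Every HS21 library was below every LS library, replicate 10 of HS14 stood at the HS21 level, and the log2 ratio of HS21 to LS was -0.70 (SE 0.05 and adjusted *P* = 4.98e-06). Slc7a9 had levels of 192, 210, 216, 226 and 132 in Cx HS14 and of 113, 105, 136, 137 and 110 in Cx HS21, with a log2 ratio of -0.70 (SE 0.08 and adjusted *P* = 9.07e-05). Its heavy chain Slc3a1 had levels of 504, 551, 457, 493 and 458 in Cx HS14 and of 444, 315, 548, 437 and 331 in Cx HS21. Here the groups overlapped, since replicate 13 reached the LS range, and the log2 ratio was -0.45 (SE 0.14 and adjusted *P* = 0.0199). With total counts it was -0.32 with adjusted *P* = 0.0703, which does not pass. The fourth apical member that was lower, Slc36a1, had a log2 ratio of -0.52 (SE 0.13 and adjusted *P* = 0.00781) with overlap, and was named after its values were seen.

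The other apical carriers did not pass. Slc6a18 had levels of 104, 79.2, 111, 83.9 and 81.7 in Cx HS21, a log2 ratio of 0.17 (SE 0.10 and adjusted *P* = 0.207). Slc6a18 passed with total counts at 0.30 with adjusted *P* = 0.0321 and by limma at 0.32 with adjusted *P* = 0.0458. In those 2 settings the medians of all genes were 0.13 and 0.15. Its ratio to the level of the neighbouring Slc6a19 was 1.21, 0.984, 1.26, 0.963 and 1.01 in Cx HS21, above the LS range of 0.537 to 0.703 in all 5 libraries. Slc7a13 had levels of 27.8, 20.6, 22.1, 24.9 and 29.4 in Cx HS14 and of 79.7, 22.3, 92.2, 72.3 and 40.1 in Cx HS21. The HS21 libraries were spread over a wide range that overlapped LS, and the log2 ratio was 0.98 (SE 0.50 and adjusted *P* = 0.144). Slc6a20 had a log2 ratio of -0.18 (SE 0.11 and adjusted *P* = 0.206). Slc1a1 had levels of 78.4, 75.4, 108, 76.3 and 63.1 in Cx HS21, where replicate 13 alone was above LS. Its log2 ratio was -0.28 (SE 0.12 and adjusted *P* = 0.0773), and without Cx HS21 replicate 13 it was -0.41 with adjusted *P* = 0.000997.

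The basolateral heavy chain and its main light chains were lower together. Slc7a7 had levels of 329, 325, 341, 353 and 146 in Cx HS14 and of 193, 167, 219, 225 and 205 in Cx HS21. All HS21 libraries were below LS, replicate 10 of HS14 was lower still, and the log2 ratio was -0.74 (SE 0.08 and adjusted *P* = 4.12e-05). Slc7a8 had levels of 106, 108, 119, 100 and 63.9 in Cx HS14 and of 56.8, 58.3, 67.8, 64.3 and 59.4 in Cx HS21, with a log2 ratio of -0.75 (SE 0.06 and adjusted *P* = 8.34e-06). Slc3a2 had levels of 254, 259, 294, 291 and 182 in Cx HS14 and of 179, 167, 195, 178 and 178 in Cx HS21, with a log2 ratio of -0.57 (SE 0.05 and adjusted *P* = 1.99e-05). In all 3 genes HS21 did not overlap LS and HS14 replicate 10 stood apart from the rest of its group. Slc43a2 had levels of 77.4, 83.9, 70.0, 69.5 and 69.3 in Cx LS and of 62.4, 65.8, 59.4, 57.8 and 57.2 in Cx HS21. The groups were close but separate, the log2 ratio was -0.29 (SE 0.07 and adjusted *P* = 0.00517), and with total counts it was -0.16 with adjusted *P* = 0.0645.

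Slc7a10 did not pass, with a log2 ratio of -0.45 (SE 0.29 and adjusted *P* = 0.238). Other members given the basolateral role were higher at HS21, from low levels. Which cells or membrane hold them in this tissue was not measured. Slc7a5 had levels of 1.30, 1.09, 1.23, 1.89 and 1.45 in Cx LS and of 3.07, 3.09, 2.74, 2.10 and 2.69 in Cx HS21. Every HS21 library was above every LS library, with a log2 ratio of 0.97 (SE 0.17 and adjusted *P* = 0.000974). Slc7a6 had a log2 ratio of 0.80 (SE 0.16 and adjusted *P* = 0.00239) without overlap. The facilitated carrier Slc43a1, on chromosome 3 (72238981 to 72264466), had levels of 1.34, 1.33, 1.44, 1.13 and 1.37 in Cx LS, of 2.33, 2, 1.81, 1.79 and 2.35 in Cx HS14, and of 3.25, 3.61, 3.38, 2.73 and 2.69 in Cx HS21. None of the 3 groups overlapped another, and the log2 ratio to LS was 0.63 (SE 0.16 and adjusted *P* = 0.0613) at HS14 and 1.24 (SE 0.15 and adjusted *P* = 0.000106) at HS21. Its neighbour Slc43a3, 65500 bases away in the same orientation, had levels of 12.5, 7.51, 5.11, 13 and 23.9 in Cx HS21, all above LS, with a log2 ratio of 1.68 (SE 0.37 and adjusted *P* = 0.0038). The ratio of the level of Slc7a5 to that of Slc7a8 was 0.0123, 0.0106, 0.0122, 0.0175 and 0.0145 in Cx LS and 0.0540, 0.0530, 0.0403, 0.0326 and 0.0453 in Cx HS21, so Slc7a8 remained the more abundant of the pair.

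Of the 3 tested members of the acidic and small neutral group, Slc1a5 and Slc1a4 rose and Slc1a3 did not pass. Slc1a5, the glutamine exchanger of dividing cells, had levels of 9.60, 8.48, 9.99, 9.29 and 7.37 in Cx LS and of 23.4, 17.1, 12.1, 13.8 and 15.6 in Cx HS21. All HS21 libraries were above LS, with a log2 ratio of 0.87 (SE 0.16 and adjusted *P* = 0.00142). Slc1a4 had levels of 1.26, 1.15, 1.36, 1.86 and 1.46 in Cx HS21, likewise above all of LS, with a log2 ratio of 1.12 (SE 0.22 and adjusted *P* = 0.00216). Slc7a1, the widespread carrier of arginine and lysine, had a log2 ratio of 0.62 (SE 0.12 and adjusted *P* = 0.00215). Slc6a17 had levels of 6.05, 5.19, 6.01, 5.68 and 4.69 in Cx LS and of 9.60, 14.1, 12.4, 8.92 and 10.2 in Cx HS21, a separate range, with a log2 ratio of 1 (SE 0.13 and adjusted *P* = 0.000152).

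Of the other members that were lower at HS21, Slc6a8 was the most abundant. It had levels of 269, 289, 273, 275 and 193 in Cx HS14 and of 164, 171, 208, 145 and 150 in Cx HS21, all below LS, with a log2 ratio of -0.65 (SE 0.09 and adjusted *P* = 0.000244). Slc6a13 had levels of 30, 23.7, 28.1, 29.1 and 27.6 in Cx LS, of 18.9, 22.7, 21.9, 22.1 and 22.5 in Cx HS14 and of 18.6, 18.3, 17.6, 20.1 and 16.8 in Cx HS21. Both HS groups lay below all of LS, and the log2 ratio at HS21 was -0.60 (SE 0.07 and adjusted *P* = 0.0001). The list of lower members was completed by the serotonin carrier Slc6a4 and the lysosomal carriers Slc38a7 and Slc36a4, with log2 ratios of -0.49, -0.53 and -0.40. Slc38a3 did not pass at HS21, with levels of 19.9, 16.5, 29.3, 22.2 and 21.9 and a log2 ratio of -0.25 (SE 0.23 and adjusted *P* = 0.42). Of the 7 glutamine carriers tested, 0 were higher by edgeR and 1 lower, with an unadjusted *P* under 0.05 in the higher direction in 1, and DESeq2 also found 0 higher. The 0 does not hold in every setting. With total counts Slc38a1 (0.67, adjusted *P* = 0.0332) and Slc38a10 (0.16, adjusted *P* = 0.0198) were higher, but the median of all genes was 0.13 there. By limma, where that median was 0.15, Slc38a1 was higher (0.76, adjusted *P* = 0.0328). Without Cx LS replicate 5 Slc38a1 was higher as well (0.74, adjusted *P* = 0.0180). With all libraries and TMM scaling edgeR gave 0.54 (adjusted *P* = 0.0776) for Slc38a1 and 0.03 (adjusted *P* = 0.668) for Slc38a10.

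Other members near the threshold at HS21 also depended on single libraries, and are described after their values were seen. Slc1a3 had a log2 ratio of 0.98 (adjusted *P* = 0.0546), which passed without Cx LS replicate 4 (1.15, adjusted *P* = 0.0478), Cx LS replicate 5 (1.27, adjusted *P* = 0.0231) or Cx HS21 replicate 13 (1.08, adjusted *P* = 0.0450). Slc7a12 had 0.72 (adjusted *P* = 0.0744), which passed without Cx HS21 replicate 12 (0.85, adjusted *P* = 0.0450) or replicate 15 (0.89, adjusted *P* = 0.0226). Without Cx HS21 replicate 14, Slc6a9 went from 0.48 (adjusted *P* = 0.111) to 0.61 (adjusted *P* = 0.0401) and Slc7a4 from 0.46 (adjusted *P* = 0.0937) to 0.60 (adjusted *P* = 0.0213). The call of Slc6a4 (adjusted *P* = 0.0317) was lost without Cx LS replicate 2, 3 or 4 or Cx HS21 replicate 12, 14 or 15, with adjusted *P* between 0.0648 and 0.0764.

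**Figure D2:**
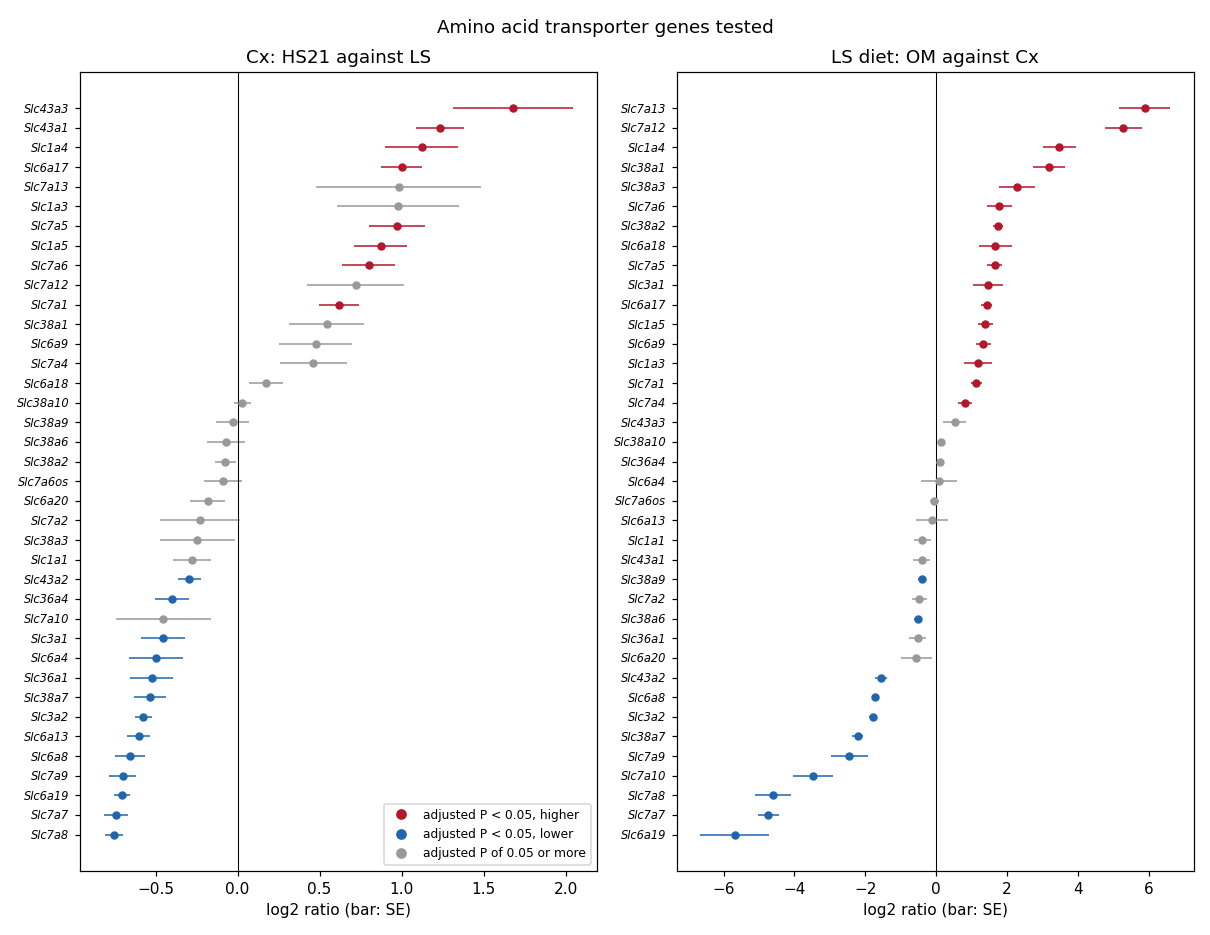
Log2 ratio of each of the 38 members tested, with its SE as a bar, in Cx for HS21 against LS (left) and on LS for OM against Cx (right), coloured by whether the adjusted *P* was under 0.05. At HS21 the ratios run from -0.75 for Slc7a8 to 1.68 for Slc43a3, and between tissues from -5.69 for Slc6a19 to 5.89 for Slc7a13. When scaled by total counts 0 of the members coloured as passing changed sign in either panel, and 4 on the left and 2 on the right no longer passed.

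Markers of cell types moved in the same comparison. Of 16 proximal tubule markers 14 were lower and the other 2 did not pass, and their summed level was 4929, 4924, 6429, 5370 and 5193 in Cx HS21. The lowest LS sum was 7760, and Slc34a1 remained the most abundant of the list. Of 3 S3 markers tested, 1 was higher and 1 lower, their sum was 24.7, 19.9, 15.1, 19.8 and 21.7, and Slc5a8 was the most abundant. Of 8 thick ascending limb markers 3 were higher and 1 lower, with sums of 859, 735, 851, 874 and 967 in Cx LS and of 1415, 1302, 1446, 1121 and 1076 in Cx HS21, Umod being the most abundant. All 4 tested markers of distal convoluted and connecting tubule were higher, with sums of 645, 534, 602, 557 and 463 in Cx LS and of 762, 1652, 1089, 730 and 686 in Cx HS21, Calb1 being the most abundant and Pvalb at 0 in all 30 libraries. Of 9 collecting duct markers 8 were higher, with Slc4a1 the most abundant and sums of 323, 348, 343, 314 and 325 in Cx LS and of 541, 683, 545, 442 and 430 in Cx HS21. The 4 podocyte markers named above were all higher, with sums of 138, 129, 124, 114 and 118 in Cx HS21, every library being above the LS sums, and Podxl the most abundant.

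Immune markers were higher too. All 7 leukocyte markers rose, with sums of 86.5, 77.8, 79.6, 59.7 and 61.9 in Cx LS and of 179, 178, 115, 219 and 302 in Cx HS21, where Coro1a was the most abundant. All 9 macrophage markers rose, with sums of 98.0, 79.5, 114, 96.4 and 94.4 in Cx LS and of 276, 200, 146, 358 and 583 in Cx HS21, C1qc being the most abundant. All 6 T cell markers tested rose, with sums of 21.6, 20.3, 22.4, 18.6 and 14.4 in Cx LS and of 64.1, 48.8, 32.3, 88.5 and 112 in Cx HS21, Cd4 being the most abundant. Replicate 15 of Cx HS21 was highest and replicate 13 lowest in all 3 immune sums, and Slc43a3 had its highest and lowest HS21 levels in those libraries. Of 7 endothelial markers 2 were higher, with Plvap the most abundant and sums of 196 to 213 in Cx LS and of 205 to 266 in Cx HS21. Of 6 fibroblast markers 1 was higher, with Dcn the most abundant and sums of 99.7 to 144 in Cx LS and of 118 to 204 in Cx HS21. The part of these shifts in the results of the members was not tested.

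The members that passed at HS21 were next set beside the proximal tubule markers of the same libraries. For each gene the log2 level minus the mean log2 level of the 16 markers was set side by side for HS21 and LS in 5 and 5 libraries. The 21 members were chosen by the same comparison in the same libraries, so the differences are a description and carry no test. The marker mean itself was 0.66 lower at HS21, which by itself moves every member up by that amount. The 8 members that had risen lay from 1.28 (Slc7a1) to 2.19 (Slc43a3) above LS, and Slc43a2, lower in itself, lay 0.37 above. The other 12 members, all lower in themselves, had differences between -0.09 and 0.26. These were -0.04 for Slc6a19, -0.04 for Slc7a9, -0.08 for Slc7a7, -0.09 for Slc7a8, 0.09 for Slc3a2 and 0.19 for Slc3a1. Against the 4 S3 markers, whose mean log2 level was 0.37 higher at HS21 while their summed level was lower, all 21 differences were lower. For the 8 members that had risen they were 0.25 for Slc7a1, 0.43 for Slc7a6, 0.47 for Slc1a5, 0.60 for Slc7a5, 0.61 for Slc6a17, 0.75 for Slc1a4, 0.82 for Slc43a1 and 1.15 for Slc43a3. Slc43a2 turned to -0.66, and the other 12 ran from -0.77 for Slc36a4 to -1.13 for Slc7a8. The change of list moved every member by the same amount. The lower values and the turn of Slc43a2 thus follow from the list means, and nothing on single members is drawn from them.

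**Figure D3:**
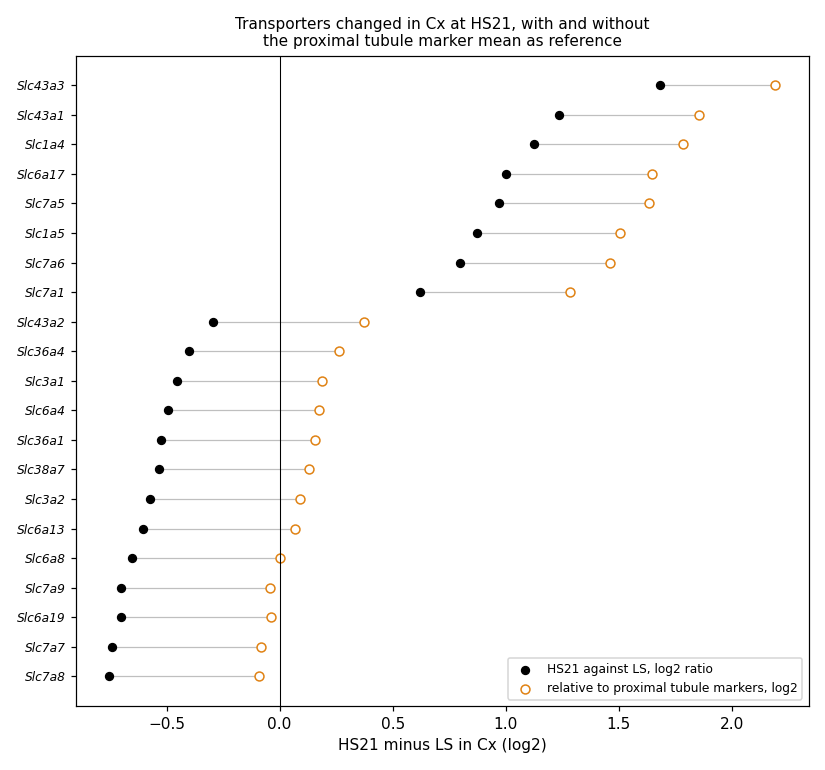
For the 21 members that passed in Cx at HS21, the log2 ratio to LS (black) and the HS21 minus LS difference after subtracting the mean of 16 proximal tubule markers (orange), with 5 libraries per group and no test. The 8 members that were higher and Slc43a2 (0.37) lie above 0, whereas the other 12 members lie between -0.09 and 0.26.

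The comparison of HS21 with HS14 uses no LS library but shares the HS21 libraries with the one against LS. In it 4 of 38 members were higher (6.50% of 14395 genes tested) and 10 lower (9.69%). Scaling by total counts moved the median of all genes from 0.01 to 0.13, the share of passing genes that were higher went from 40.1% to 76.4%, and the members numbered 7 higher and 7 lower, with 0 of 14 changed in sign. The lower members with the largest log2 ratios were Slc6a19 (-0.78, SE 0.15 and adjusted *P* = 0.0111), Slc7a9 (-0.69), Slc7a8 (-0.69), Slc36a1 (-0.64), Slc6a8 (-0.63) and Slc3a2 (-0.50). Apart from Slc36a1 these overlapped between the groups, Cx HS14 replicate 10 lying low in each of the 5. Without that library 2048 of 14541 genes were lower and 1476 higher, against 1395 and 935 with all libraries. In that fit 12 members were lower and 7 higher, among them Slc7a7 at -0.74 with adjusted *P* = 0.000417, which did not pass with all libraries (-0.56, adjusted *P* = 0.0754). With all libraries the higher members were Slc7a13 (1.30, SE 0.32 and adjusted *P* = 0.0207), Slc7a12 (1.07, SE 0.32 and adjusted *P* = 0.042), Slc1a4 (0.72, SE 0.22 and adjusted *P* = 0.044) and Slc43a1 (0.61, SE 0.15 and adjusted *P* = 0.0239). Only Slc43a1 was free of overlap. The call of Slc7a13 was lost without Cx HS14 replicate 7, 8 or 9 (adjusted *P* 0.0531 to 0.0572). That of Slc7a12 was lost without Cx HS14 replicate 7, 8, 9 or 10 or Cx HS21 replicate 11, 13 or 14 (0.0578 to 0.0992), and that of Slc1a4 without Cx HS14 replicate 7, 8 or 9 or Cx HS21 replicate 11, 13, 14 or 15 (0.0555 to 0.104). That of Slc43a1 was lost without Cx HS14 replicate 7, 8 or 9 or Cx HS21 replicate 12 (0.0519 to 0.0647). The number of higher members was 0 by edgeR without Cx HS14 replicate 7 or replicate 8, 1 without replicate 9, which was Slc6a16 (2.73, adjusted *P* = 0.0330) and none of the 4, and 2 without Cx HS21 replicate 11 or replicate 14, against 8 with an unadjusted *P* under 0.05 and 7 by DESeq2 when all libraries were kept. Of all genes, 451, 337 and 360 were higher without Cx HS14 replicate 7, 8 and 9. Without Cx HS21 replicate 11 and 14 these counts were 691 and 473. The other members that gained a call without Cx HS14 replicate 10 were Slc6a17 (0.63, adjusted *P* = 0.00811), Slc7a5 (0.82, adjusted *P* = 0.0146), Slc38a3 (0.48, adjusted *P* = 0.0452), Slc6a16 (2.05, adjusted *P* = 0.0292) and Slc1a1 (-0.43, adjusted *P* = 0.0399), and Slc1a1 also passed without Cx HS21 replicate 13 (-0.49, adjusted *P* = 0.00784). Slc6a16, which the filter on low counts removed when all libraries were kept, passed as well without Cx HS14 replicate 6 (2.22, adjusted *P* = 0.0449) or Cx HS21 replicate 13 (2.47, adjusted *P* = 0.00619), without a filter (2.25, adjusted *P* = 0.0275), by DESeq2 (2.27, adjusted *P* = 0.00298) and in 1 fit over 30 libraries (2.22, adjusted *P* = 0.0238). Of the remaining lower members 3 lost their call without 1 library, Slc43a2 without Cx HS14 replicate 7 or 8, Slc36a4 without Cx HS14 replicate 7, 8 or 9 or Cx HS21 replicate 14, and Slc6a13 without Cx HS14 replicate 7, 8 or 9 or Cx HS21 replicate 11, 12, 13 or 15.

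Markers moved in this comparison too, and the sums of the HS14 and HS21 groups are those given above unless stated. Of 16 proximal tubule markers 9 were lower, and of 3 tested S3 markers 1 was lower. Of the immune markers 6 of 7 for leukocytes, 5 of 6 tested for T cells and 4 of 9 for macrophages were higher. Of 7 endothelial markers 2 were higher, with sums of 198 to 219 in Cx HS14, and of 8 thick ascending limb markers 1 was, with sums of 864, 858, 791, 782 and 1379 in Cx HS14. None of the distal convoluted and connecting tubule, collecting duct, podocyte and fibroblast markers passed. The part of these shifts in the results of the members was not tested.

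In OM the diet groups differed in few members. At HS14, 0 of 39 members were higher by edgeR, where 0.00694% of 14417 genes tested were higher, and 0 were lower, where 0% were. An unadjusted *P* under 0.05 was seen in 2 members in the higher and 0 in the lower direction, and DESeq2 found 1 higher and 0 lower. The 2 were Slc7a5 (0.86, SE 0.20 and adjusted *P* = 0.397) and Slc43a3 (0.98, SE 0.32 and adjusted *P* = 0.596). Between HS21 and HS14, 0 of 39 were higher (0% of 14499 genes tested) and 0 lower (0%) by edgeR, with an unadjusted *P* under 0.05 in 0 members and 0 found by DESeq2.

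At HS21 against LS in OM, 0 of 39 members were higher by edgeR (0.639% of 14555 genes tested) and 1 lower (0.131%). In the higher direction 2 had an unadjusted *P* under 0.05, and DESeq2 found 1. The lower member was Slc38a2, a glutamine and alanine carrier that responds to amino acid supply, on chromosome 7 (138088649 to 138100841). Its levels were 89.4, 75.6, 73.3, 110 and 113 in OM LS, 85.9, 44.5, 78.8, 97.3 and 64.9 in OM HS14, and 52.8, 60.5, 59.8, 56.5 and 52.2 in OM HS21. The HS21 libraries lay below all of LS, HS14 spanned both, and the log2 ratio of HS21 to LS was -0.71 (SE 0.14 and adjusted *P* = 0.0491). The call was lost without any 1 of OM LS replicates 1, 3, 4 and 5 or OM HS21 replicates 11 to 15, with adjusted *P* between 0.0552 and 0.149, and with total counts (adjusted *P* = 0.134). Slc7a5 had levels of 3.82, 3.11, 5.11, 4.02 and 5.89 in OM LS and of 9.23, 7.79, 8.98, 6.06 and 9.81 in OM HS21, without overlap. Its log2 ratio was 0.93 (SE 0.19 and adjusted *P* = 0.0601), and without OM LS replicate 5 it was 1.05 with adjusted *P* = 0.0389. It was the member that DESeq2 called, and 1 fit over 30 libraries called it too.

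Some immune markers were higher in OM at HS21. Of 7 leukocyte markers 5 passed, with sums of 103, 55.9, 83.8, 61.2 and 108 in OM LS and of 201, 171, 140, 198 and 213 in OM HS21, where Coro1a was the most abundant. Of 7 T cell markers 1 passed and all 7 had an unadjusted *P* under 0.05, with sums of 27.2, 8.87, 25.6, 16.3 and 34.5 in OM LS and of 67.5, 46.5, 39.8, 73.8 and 83.2 in OM HS21, Cd4 being the most abundant. Of 9 macrophage markers none passed and 7 had an unadjusted *P* under 0.05 in the higher direction, with sums of 137, 41.8, 107, 89.4 and 180 in OM LS and of 357, 179, 196, 281 and 372 in OM HS21, C1qc being the most abundant. No marker of the other cell types passed in OM at HS21, where 3 of 6 fibroblast markers had an unadjusted *P* under 0.05 in the higher direction, and no marker passed at HS14 or between HS21 and HS14. At HS14 an unadjusted *P* under 0.05 in the higher direction was seen in 6 of 6 fibroblast, 5 of 7 leukocyte, 4 of 6 tested T cell and 3 of 9 macrophage markers. The fibroblast sums were 121, 127, 138, 94.9 and 169 in OM LS, 182, 255, 297, 216 and 202 in OM HS14 and 129, 183, 159, 249 and 276 in OM HS21, so HS14 lay above all of LS, and Dcn was the most abundant. In OM HS14 the leukocyte sums were 122, 143, 140, 131 and 94.1, the T cell sums 40.4, 37.1, 46.2, 42.3 and 38.8 and the macrophage sums 183, 165, 231, 186 and 74.2. Between HS21 and HS14 the same was seen in 6 of 7 leukocyte, 4 of 7 T cell and 2 of 9 macrophage markers. The part of these shifts in the OM results was not tested.

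The reabsorption carriers of OM had wide errors in the same comparison. Slc7a13 had levels of 2138, 2122, 861, 1425 and 769 in OM HS14 and of 630, 1614, 2025, 1993 and 2213 in OM HS21. The 3 groups covered the same range, and the log2 ratio of HS21 to LS was -0.12 (SE 0.47 and adjusted *P* = 0.972). Slc3a1 had levels of 1884, 1894, 792, 1277 and 1047 in OM HS14 and of 701, 1391, 2097, 1960 and 2063 in OM HS21, with a log2 ratio of 0.07 (SE 0.48 and adjusted *P* = 0.986). The ratio was -0.06 for Slc6a18, 0.48 for Slc6a19, -0.18 for Slc6a20, -0.08 for Slc1a1, -0.22 for Slc7a9, -0.06 for Slc7a7, 0.22 for Slc7a8, -0.20 for Slc3a2, -0.08 for Slc43a2 and -0.19 for Slc38a3, each with an adjusted *P* of at least 0.622. The marker sums of the proximal tubule spread as widely, from 1017 to 6766 in OM LS, from 1716 to 3337 in OM HS14 and from 1292 to 3329 in OM HS21.

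An interaction over 20 libraries asked whether OM and Cx differed in their HS21 ratio. Scaling by total counts moved its median of all genes from -0.06 to -0.16 and the share of passing genes that were higher from 67.3% to 51.4%, and Slc6a8 still passed. Of 42 members 1 was higher, meaning a larger ratio in OM than in Cx (0.448% of 15194 genes tested), and 0 were lower by edgeR (0.217%), with 6 lower at an unadjusted *P* under 0.05 and 1 lower by DESeq2. The 1 was Slc6a8, with a difference of 0.64 (SE 0.12 and adjusted *P* = 0.0238). In OM its levels were 77.3, 80.4, 88.7, 78.0 and 71.9 at HS21, 2 of them below and 1 above the LS range, while in Cx all HS21 libraries were below LS. The call was lost without OM LS replicate 1 (adjusted *P* = 0.0536) or replicate 4 (adjusted *P* = 0.0542), by limma and in 1 fit over 30 libraries. Without OM LS replicate 2, 729 of 15391 genes were higher and 546 lower, against 68 and 33 with all libraries. In that fit 5 members were higher and 4 lower. The higher ones were Slc6a8, Slc6a19 (2.66, adjusted *P* = 0.029), Slc7a8 (1.71, adjusted *P* = 0.00129), Slc7a7 (1.03, adjusted *P* = 0.0474) and Slc38a7 (0.65, adjusted *P* = 0.0346), and the lower ones were Slc7a6, Slc6a17, Slc7a1 and Slc38a2. Without OM LS replicate 3, 1 was lower, which was Slc38a2, and without OM LS replicate 5, 2 were higher, the added one being Slc3a2 (0.49, adjusted *P* = 0.0245). Of all genes, 19 were lower without replicate 3 and 85 higher without replicate 5. With all libraries the differences were 1.20 (SE 0.95) for Slc6a19, 0.98 (SE 0.49) for Slc7a8, 0.68 (SE 0.38) for Slc7a7, 0.53 (SE 0.52) for Slc3a1, 0.48 (SE 0.60) for Slc7a9 and -1.10 (SE 0.75) for Slc7a13. They were 0.37 (SE 0.14) for Slc3a2, 0.21 (SE 0.28) for Slc43a2, 0.19 (SE 0.29) for Slc1a1, 0.07 (SE 0.61) for Slc38a3, 0.00889 (SE 0.53) for Slc6a20 and -0.24 (SE 0.52) for Slc6a18, and none of these 12 passed. Of the cell type markers, 1 of 8 for the thick ascending limb was lower in the interaction and no other passed, and its part was not tested.

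Several proteins that work with the carriers were in a separate list of 13 names, of which 11 were in the table and 10 were tested in Cx. The most abundant was Tmem27, also called collectrin, which brings Slc6a carriers to the brush border. At HS21 in Cx 1 of the 10 was higher and 6 lower. The log2 ratios of the 10 ran from -0.78, for a gene not named here, to 0.74. The lysosomal peptide carrier Slc15a3 had a log2 ratio of 0.74 (SE 0.15 and adjusted *P* = 0.00205) and the aromatic amino acid carrier Slc16a10 of -0.64 (SE 0.09 and adjusted *P* = 0.000209). Tmem27 had -0.48 (SE 0.07 and adjusted *P* = 0.000505). Summed levels of the list were 1940, 2083, 2002, 2034 and 2026 in Cx LS and 1377, 1482, 1668, 1546 and 1312 in Cx HS21, lower in every library. Slc32a1 was at 0 in all libraries of 4 groups. On LS, 2 were higher in OM and 6 lower, with Slc15a1 at -6.00, Tmem27 at -2.47 and Slc15a2 at 2.45. Between HS21 and HS14 in Cx 4 were lower, and none passed in the other diet comparisons or the interaction.

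A list of 15 genes of the amino acid response, which includes the factor Atf4 and serine synthesis enzymes, split in Cx at HS21. Of 13 tested 5 were higher and 5 lower. The largest log2 ratios were those of the mitochondrial folate enzyme Mthfd2 (1.78, SE 0.25 and adjusted *P* = 0.0003), Ddit4 (1.33, SE 0.39 and adjusted *P* = 0.0175) and Cebpb (1.32, SE 0.29 and adjusted *P* = 0.00383). The serine synthesis enzymes Psph (-1.01), Psat1 (-0.91) and Phgdh (-0.71) were lower, and Asns was higher (0.74), of which Psph, Phgdh and Asns were chosen after their values were seen. Summed levels were 631, 614, 628, 654 and 575 in Cx LS and 417, 418, 465, 468 and 574 in Cx HS21, each HS21 library being below the lowest of LS, replicate 15 narrowly. Psat1 was the most abundant in Cx LS and Atf4 in Cx HS21, and Nupr1 was at 0 in every library. On LS, 4 of 14 were higher in OM and 5 lower, with Phgdh at -3.29, Chac1 at 2.94 and Psph at -2.67. Between HS21 and HS14 in Cx 1 was higher and 4 lower, and none passed in the other diet comparisons or the interaction.

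Promoter sequences from RefSeq (GRCr8) were found for 31 of the 43 members. The 250 bases before each gene start were searched on both strands for 3 motifs, and a match is a description of letters, not a site or a cause. GTTAAT, a core of sites for the HNF1 factors of kidney epithelium, was in 6.45% of 33469 promoters and in 4 members, Slc6a18, Slc6a19, Slc7a12 and Slc7a15. CAAAGTCCA, a motif of HNF4, was in 0.338% and in 1 member, Slc3a1. TGATGNAA, the core of the amino acid response element, was in 3.40% and in 3 members, Slc1a4, Slc38a1 and Slc7a1. The promoters of Slc6a19 (chr1:31414494-31414743, + strand) and Slc6a18 (chr1:31436403-31436652, + strand) are shown because the neighbours had opposite tissue patterns, with the match to GTTAAT or its reverse complement in capitals.
Slc6a19: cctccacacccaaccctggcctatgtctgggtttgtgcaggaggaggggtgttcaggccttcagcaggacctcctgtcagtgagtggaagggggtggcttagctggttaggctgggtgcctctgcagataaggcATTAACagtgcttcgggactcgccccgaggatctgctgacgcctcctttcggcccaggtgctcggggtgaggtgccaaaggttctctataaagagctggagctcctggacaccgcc
Slc6a18: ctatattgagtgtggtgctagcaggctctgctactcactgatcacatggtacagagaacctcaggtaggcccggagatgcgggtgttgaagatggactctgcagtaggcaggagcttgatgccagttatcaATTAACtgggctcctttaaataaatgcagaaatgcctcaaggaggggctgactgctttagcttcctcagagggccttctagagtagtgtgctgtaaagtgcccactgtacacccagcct

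The promoters with the amino acid response core are shown for all 3 members that hold it. The 3 were among the 16 of 38 members higher in OM on LS, where 21.3% of all genes were, and 2 were among the 8 of 38 higher in Cx at HS21, where 18.9% were. A link of motif and change was not tested. The log2 ratios at HS21 were 1.12 for Slc1a4, 0.62 for Slc7a1 and 0.54 (adjusted *P* = 0.0776) for Slc38a1, which did not pass with all libraries and TMM scaling but did in the settings named above. Capitals mark the match to TGATGNAA or its reverse complement. They are from chr14:98761563-98761812 (- strand) for Slc1a4, chr12:11664238-11664487 (+ strand) for Slc7a1 and chr7:129681402-129681651 (- strand) for Slc38a1.
Slc1a4: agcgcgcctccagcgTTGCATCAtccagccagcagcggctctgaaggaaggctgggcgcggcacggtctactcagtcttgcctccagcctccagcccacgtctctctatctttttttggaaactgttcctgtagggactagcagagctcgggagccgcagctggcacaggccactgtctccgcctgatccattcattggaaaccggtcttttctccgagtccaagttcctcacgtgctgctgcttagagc
Slc7a1: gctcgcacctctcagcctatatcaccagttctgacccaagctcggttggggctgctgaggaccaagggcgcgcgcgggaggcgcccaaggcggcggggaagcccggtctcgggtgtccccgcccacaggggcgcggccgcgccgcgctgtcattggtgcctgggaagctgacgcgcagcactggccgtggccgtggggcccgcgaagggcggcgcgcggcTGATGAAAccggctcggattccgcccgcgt
Slc38a1: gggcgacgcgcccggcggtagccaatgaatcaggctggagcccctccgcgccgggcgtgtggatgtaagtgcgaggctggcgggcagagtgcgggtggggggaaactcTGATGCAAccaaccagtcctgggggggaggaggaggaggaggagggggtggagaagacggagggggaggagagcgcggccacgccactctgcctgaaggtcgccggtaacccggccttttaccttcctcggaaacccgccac

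Of the members kept but not tested in Cx, 3 lay just inside the count rule with 8 libraries of at least 10 counts, Slc1a7, Slc38a11 and Slc6a16. Slc6a16, Slc38a4 and Slc7a15 are described after their values were seen. Slc6a16 had levels of 0.106, 0.109, 0.142, 0.102 and 0.0889 in Cx LS and of 0.675, 0.552, 0.128, 0.996 and 0.565 in Cx HS21. In 4 of 5 HS21 libraries it was above all of LS and in replicate 13 it was inside the LS range, but the filter on low counts removed it from the test of this comparison. It was called higher where it was tested without a filter (2.38, adjusted *P* = 0.00257), by DESeq2 (2.43, adjusted *P* = 0.000259), in 1 fit over 30 libraries (2.38, adjusted *P* = 0.00392), and without any 1 of Cx LS replicates 1 to 5 (2.31 to 2.48, adjusted *P* 0.00562 to 0.00790) or Cx HS21 replicate 13 (2.63, adjusted *P* = 0.000105). Slc38a4 had levels of 0.0381, 0.137, 0.0768, 0.0915 and 0.0320 in Cx LS and of 1.49, 0.149, 0.935, 0.950 and 1.45 in OM LS, where replicate 2 was lowest. Slc7a15 had 0 counts in 3 of 5 Cx LS libraries and levels of 0.330, 0.0352, 0.289, 0.314 and 0.977 in OM LS. Both were removed by the filter between the tissues on LS and were called higher in OM without a filter (3.73, adjusted *P* = 0.000716 for Slc38a4, and 4.18, adjusted *P* = 0.00620 for Slc7a15), by DESeq2, in 1 fit over 30 libraries, and without any 1 of Cx LS replicates 1 to 5 or OM LS replicate 2. Slc7a6os, which overlaps the family names only by its symbol, encodes no carrier and passed in none of the comparisons.

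The 17 matched genes that were not kept had at most 18 counts in any library. Just outside the rule were Slc6a5, with up to 18 counts, and Slc7a11, the cystine and glutamate exchanger, with up to 16, each with 3 libraries of at least 10 counts. Slc6a14 had 0 counts in all 30 libraries. Slc36a2, the iminoacid and glycine carrier of the brush border, had 1 count in 1 library, so its expression was not detectable at this depth. The others included Slc1a2, Slc1a6, Slc36a3, Slc38a5, Slc38a8, Slc6a2, Slc6a3, Slc6a7, Slc6a11, Slc6a15, Slc7a3 and Slc7a14.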

How the data were processed

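The count values were made by the authors before they were deposited, with reads aligned by HISAT2 2.0.5 and counted per gene by featureCounts 1.5.0-p3. The FPKM values were deposited by the authors beside the counts and were used only in 1 alternative. The deposited tables also hold gene length, which was used for levels, and comparison columns with group means, log2 fold changes and *P* values of the authors, which were not used. StringTie 1.3.3b is named in the labels as well. Libraries were poly(A)-selected and taken as unstranded, so counts of the overlapping genes Slc7a10 and Lrp3, and Slc38a6 and Trmt5, are uncertain.

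Each comparison was fitted on its own libraries after removal of low-count genes, with TMM scaling and edgeR's quasi-likelihood test, and *P* values were adjusted by Benjamini-Hochberg over all genes tested. Alternatives were total counts in place of TMM, no filter on low counts, DESeq2, limma on log2(FPKM + 1), 1 fit over 30 libraries, each library left out in turn, and a block for replicate number. A tissue contrast at HS14 and the S3 list as reference were further alternatives, the former added after the data were seen. Named genes were 13 reabsorption carriers whatever they did, and in each comparison up to 6 members called higher and 6 called lower with the largest log2 ratios. Genes of lists were to be named when most abundant, absent or among the 3 largest changes. Members and list genes named beyond these rules were chosen after their values were seen. Lists covered 4 podocyte markers, proximal tubule, its S3 segment, thick ascending limb, distal convoluted and connecting tubule, collecting duct, endothelium, fibroblasts, leukocytes, macrophages, T cells, partners of the carriers and the amino acid response. Members and lists were chosen with earlier results of these data known. The code was tested on simulated data. Tools were R 4.3.3, edgeR 4.0.16, limma 3.58.1, DESeq2 1.42.0, Python 3.11.15, numpy 2.4.6, pandas 2.3.3 and matplotlib 3.10.9.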

Additional observations from a re-analysis of the deposited data

Results flagged for a closer look

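In 19 of 162 groups of 5 libraries, 1 library lay far from the other 4 of its group in the level of a named gene, by a cut that chance passes in about 1 in 20 independent groups. The groups here are not independent, since 27 genes were read in the same 30 libraries and some were named for their results. No excess over chance is drawn from the count. Of the 19 groups 1 was in Cx LS, 5 in Cx HS14, 0 in Cx HS21, 4 in OM LS, 6 in OM HS14 and 3 in OM HS21. In Cx HS14, replicate 10 held a level of 23.8 for Slc1a5 (others 9.98 to 14.0), 11.7 for Slc6a17 (6.50 to 7.52), 193 for Slc6a8 (269 to 289) and 146 for Slc7a7 (325 to 353). Replicate 6 held 18.9 for Slc6a13 (21.9 to 22.7). In Cx LS, replicate 4 held 95.8 for Slc6a18 (75.2 to 81.0).

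In OM LS, replicate 2 held 6.29 for Slc38a7 (3.53 to 4.08), 9.56 for Slc6a19 (0.122 to 1.99) and 10.9 for Slc7a8 (1.89 to 3.64), and replicate 5 held 1.71 for Slc43a1 (0.733 to 0.908). In OM HS14, replicate 10 held 41.7 for Slc3a2 (71.5 to 73.8) and 45.5 for Slc43a2 (15.2 to 23.0). Replicate 7 held 4.62 for Slc38a7 (3.16 to 3.52) and 0.413 for Slc7a10 (0 to 0.0722), replicate 8 held 1.77 for Slc43a1 (1.18 to 1.33), and replicate 9 held 5.36 for Slc7a5 (8.35 to 9.22). In OM HS21, replicate 11 held 53.4 for Slc1a5 (19.9 to 23.2) and 39.4 for Slc43a2 (17.1 to 23.1), and replicate 14 held 0.255 for Slc7a10 (0 to 0.0661).

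The HS21 ratio of Slc6a8 differed between the tissues in the interaction test, by 0.64 on the log2 scale. The call was lost by limma, in 1 fit over 30 libraries, and without OM LS replicate 1 or 4.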

How the results depend on the processing

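Each group held 5 libraries of mixed tissue, so cell composition and regulation within cells cannot be told apart, and poly(A) counts say nothing of protein or transport. By the paper's methods the 5 kidneys of each group were divided into both tissues, so Cx and OM of a group come from the same rats. Replicate numbers are shared by Cx and OM too, but the labels do not say whether equal numbers are the same rat. The correlation over such pairs ran from -0.0709 to 0.439, with 10 of 15 over 0.1 and 13 of 15 Cx libraries closest to their own number. Pairing was to be used if every pair was over 0.1, which was not met, so the tissue results stand on unpaired fits, and equal numbers may still be the same rat. With a replicate block, OM against Cx on LS gave 14 members higher and 12 lower, and the interaction 1 and 0. Under the block Slc36a1 passed (-0.58, adjusted *P* = 0.0234), and Slc3a1 (1.20, adjusted *P* = 0.0821) and Slc6a18 (1.35, adjusted *P* = 0.0699) did not.

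For HS14 against LS in Cx, the higher members numbered 5 by DESeq2, 5 by limma and 0 in 1 fit over 30 libraries, and 0 to 2 with 1 library left out. The lower members numbered 0 by limma, 0 in that fit, and 0 to 1 with 1 library left out. For HS21 against LS, 15 were higher with total counts, and 8 were lower by limma and 3 in the fit over 30 libraries. Between HS21 and HS14, 7 were higher with total counts, 7 by DESeq2, 0 by limma, 1 in the fit over 30 libraries, and 0 to 7 with 1 library left out, while 6 were lower by limma and 2 in that fit. In OM at HS14, 1 was higher by DESeq2 and 1 in the fit over 30 libraries. In OM at HS21, 1 was higher by DESeq2 and 1 in that fit, and 0 to 1 with 1 library left out, while the lower count was 0 with total counts, 0 without a filter, 0 by limma, and 0 to 1 with 1 library left out. For the interaction, 0 were higher by limma, 0 in the fit over 30 libraries and 0 to 5 with 1 library left out, while 1 was lower by DESeq2 and 0 to 4 with 1 library left out.

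Limma on FPKM moved the median of all genes to 0.23 in Cx at HS14, 0.15 in Cx at HS21, 0.14 between the tissues, -0.27 in OM at HS14, 0.11 in OM at HS21 and 0.36 between HS21 and HS14 in OM. In no setting did a call turn its sign. DESeq2 gave no adjusted *P* for Slc6a19 and Slc7a8 between the tissues. The cause of these shifts was not tested.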
